A study of Mus musculus with 6 samples.

Results

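The genes described here control the entry of pyruvate into mitochondria and its conversion there to acetyl-CoA, and their expression was compared in mouse microglial cultures kept at high or low oxygen. They are the inhibitory kinases Pdk1, Pdk2, Pdk3 and Pdk4, the phosphatases Pdp1 and Pdp2, the pyruvate dehydrogenase (PDH) complex subunits Pdha1 and Dlat, and the mitochondrial pyruvate carrier subunits Mpc1 and Mpc2. These 10 genes were listed by name, and a gene was measured where the array had a row whose only gene symbol was that name. This gave 9 of the 10 genes, each with a single row, out of 30176 genes measured in all. Mpc2 had no such row and was not analysed here.

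Pyruvate is the end product of glycolysis. In well oxygenated cells it crosses the inner mitochondrial membrane through the carrier formed by MPC1 and MPC2, and the PDH complex turns it into acetyl-CoA for the TCA cycle. PDK enzymes phosphorylate the alpha subunit of the complex, which is encoded by Pdha1, and thereby switch it off, while PDP enzymes remove the phosphate and switch it on again. At low oxygen, transcription factors of the hypoxia-inducible factor (HIF) family are stabilized, and Pdk1 is a known target gene of HIF. More PDK activity thus slows the conversion of pyruvate to acetyl-CoA in the mitochondria, and lactate dehydrogenase in the cytosol can turn pyruvate into lactate.

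Microglia are macrophages that live in the brain. Primary cultures were made from newborn (P0) CD1 pups, and the labels of each array give 5 pooled pups. The normoxia group was kept at 21% oxygen and the hypoxia group at 1% oxygen, both for 6 h, and no other treatment is given in the labels. Cultures 3, 4 and 6 each provided 1 array per condition, which makes 3 arrays per group and 6 in all. The unit throughout is the log2 intensity, normalized by the authors with RMA, so that a difference of 1 is a doubling, and the intensity of a gene also depends on its probes, so levels are compared between arrays and serve between genes only to filter out dim ones.

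The median log2 intensity of the arrays lay between 5.84 and 5.92, and arrays of a group correlated at 0.987 or more. Of 5 genes chosen as a check of the exposure, Egln3, Bnip3, Slc2a1 and Ankrd37 rose by 1.72 to 3.30 (highest adjusted p = 0.00595, limma). The difference in Vegfa was 1.22 (adjusted p = 0.0597 without and 0.00904 with the culture as a block, limma). Of 14 microglial markers 13 were measured, and their mean log2 intensity was 11.05 to 11.07 in normoxia and 10.96 to 11.03 in hypoxia, with 5 of the 13 above 0 in log2 fold change (median -0.05). Markers of fibroblasts and pericytes had a mean of 7.39 to 8.64 in normoxia and 7.81 to 8.95 in hypoxia over 9 markers, and were highest in culture 3 in both conditions. All 9 had log2 fold changes above 0 (median 0.43). None of them passed without the culture in the model, the lowest adjusted p from limma being 0.572, and 2 passed with it (Col1a1 and Col3a1). All 7 astrocyte markers, 6 endothelial markers and 6 oligodendrocyte lineage markers were also above 0, with medians of 0.13, 0.18 and 0.09, as were 5 of 6 neuronal markers (median 0.08), and none passed. Of all genes 59.7% were above 0. The arrays measured whole cultures, so a change in the share of a cell type and a change in RNA per cell cannot be told apart, and the part of other cells in the values below was not tested.

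To evaluate whether the kinases and the other genes of pyruvate entry responded alike, hypoxia was compared with normoxia by limma over all 30176 genes, with the Benjamini-Hochberg adjustment and a threshold of 0.05. Without the culture in the model, none of the 9 genes passed in either direction. At this setting 0.209% of all genes were called higher and 0.0166% lower. With no adjustment for the number of genes, Pdk1 and Pdk3 (2 of 9) had a p under 0.05, both higher, as had 4.28% of all genes in the higher and 6.1% in the lower direction. The arrays pair by culture, and with the culture as a block 1 gene, Pdk1, was called higher and none lower, against 0.421% and 0.116% of all genes. Pdk3 was just short of the threshold (adjusted p = 0.0538 with the block). Before adjustment 3 of the 9 (Pdk1, Pdk2 and Pdk3) were higher with the block and none lower, against 7.68% and 9.26% of all genes. In Pdk1 and Pdk3 the 3 hypoxia arrays lay above the 3 normoxia arrays. That was so for 8.24% of all genes and for 2 of the 9 genes here, while 7.58% of all genes and none of the 9 had hypoxia wholly below normoxia.

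**Figure D1:**
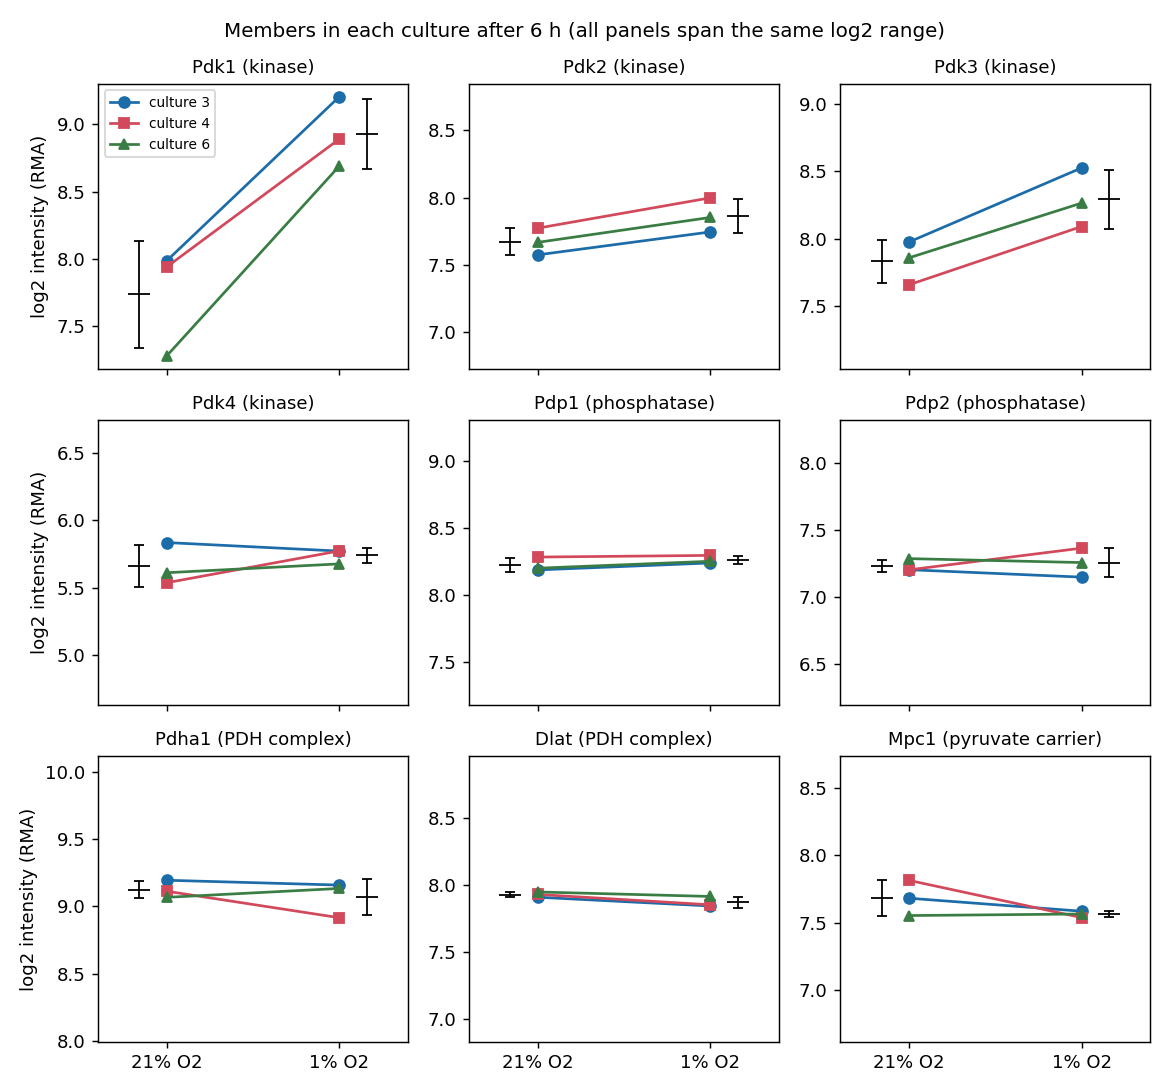
Log2 intensity of the 9 measured genes at 21% and 1% oxygen, with a line for each of cultures 3, 4 and 6 and the mean ± SD of each group in black. All panels span the same log2 range, and Pdk1 and Pdk3 are the genes whose groups do not overlap.

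Pdk1 showed the widest difference between the conditions among the 9 genes. It encodes the PDH kinase isoform best known as a HIF target, and lies on chromosome 2 of GRCm38 from 71873215 to 71903858. In normoxia its log2 intensity was 7.99, 7.94 and 7.28 in cultures 3, 4 and 6. In hypoxia it was 9.21, 8.89 and 8.69 in the same order. Every hypoxia array was thus above every normoxia array, and culture 6 was the lowest in both conditions. The spread between cultures in normoxia was large for this gene, with an SD larger than that of 97.8% of all genes. The mean went from 7.74 ± 0.40 to 8.93 ± 0.26 (SD, n = 3 cultures in each group). The log2 fold change was 1.19 with a standard error of 0.20, or 2.29-fold with a 95% interval of 1.65 to 3.17. The adjusted p was 0.106 from limma. Within cultures the differences were 1.22, 0.95 and 1.41, so the size of the response varied less between cultures than the starting level did. With the culture as a block the standard error was 0.10, the 95% interval of the fold was 1.95 to 2.69 and the adjusted p was 0.00988 (limma). The call with the block was lost without culture 3, where the log2 fold change was 1.18 (adjusted p = 0.170 with the block) and 17 genes in all were called higher, against 127 with all cultures. It passed without culture 4 (1.31, adjusted p = 7.88e-05, limma) and without culture 6 (1.08, adjusted p = 0.00870, limma). Such fits hold only 2 cultures, and their moderated standard errors rest mostly on the variance of all genes. Without culture 4 they were 0.109 for Pdk1 and 0.105 for each of Pdk2, Pdp1 and Dlat. The adjusted p-values of these fits therefore do not measure how well the cultures agree.

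Pdk3 had a smaller difference in the same direction. Its product is the PDH kinase isoform with a narrow tissue range, and the gene lies on chromosome X from 93764616 to 93832150. The log2 intensity was 7.98, 7.66 and 7.86 in normoxia and 8.53, 8.09 and 8.26 in hypoxia, in cultures 3, 4 and 6. The groups did not overlap, and culture 3 was the highest and culture 4 the lowest in both. The log2 fold change was 0.46 (standard error 0.13, 95% interval 0.17 to 0.76), with an adjusted p = 0.371 from limma, and within cultures the differences were 0.55, 0.43 and 0.41. The block lowered the standard error to 0.07. With the block the adjusted p was between 0.0739 and 0.201 when 1 culture was left out, and 0.0323 when the arrays were also weighted by their quality.

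The difference in Pdk2 was smaller again, and even between cultures. Pdk2 encodes the kinase isoform found in most tissues and lies on chromosome 11 from 95026258 to 95041371. It stood at 7.57, 7.77 and 7.67 in normoxia and at 7.74, 8.0 and 7.85 in hypoxia. Hypoxia was higher in each of the 3 cultures, by 0.17, 0.23 and 0.19, but the groups overlapped. The log2 fold change was 0.19 (standard error 0.09, adjusted p = 0.511 without and 0.211 with the block, limma), and the 95% interval reached from -0.02 to 0.40 without the block and from 0.04 to 0.34 with it.

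Pdk4, the isoform known for its induction by fasting and fatty acids, did not pass and had no common direction. The gene (chromosome 6, 5483351 to 5496278) was the member removed by the filter on dim genes. Its log2 intensity was 5.83, 5.54 and 5.61 in normoxia and 5.77, 5.77 and 5.68 in hypoxia. It was lower in culture 3 (-0.06) and higher in cultures 4 and 6 (0.24 and 0.07). The log2 fold change of 0.08 had a 95% interval of -0.13 to 0.29 and an adjusted p = 0.760 from limma, so that a difference as large as that of Pdk1 lay outside this interval and one as large as that of Pdk2 lay inside it.

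The shifts of Pdk1, Pdk3 and Pdk2 fell in this order of size within every culture. Pdk4 lay below Pdk2 in cultures 3 and 6 and about level with it in culture 4 (0.24 and 0.23). Pdk1 exceeded Pdk3 by 0.67, 0.52 and 1.00 in cultures 3, 4 and 6, and Pdk3 exceeded Pdk2 by 0.38, 0.21 and 0.22. These are differences between log2 fold changes of separate probe sets and were not tested. Of all genes, 99.9% had a lower log2 fold change than Pdk1, 99.3% than Pdk3, 93.3% than Pdk2 and 68.2% than Pdk4.

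**Figure D2:**
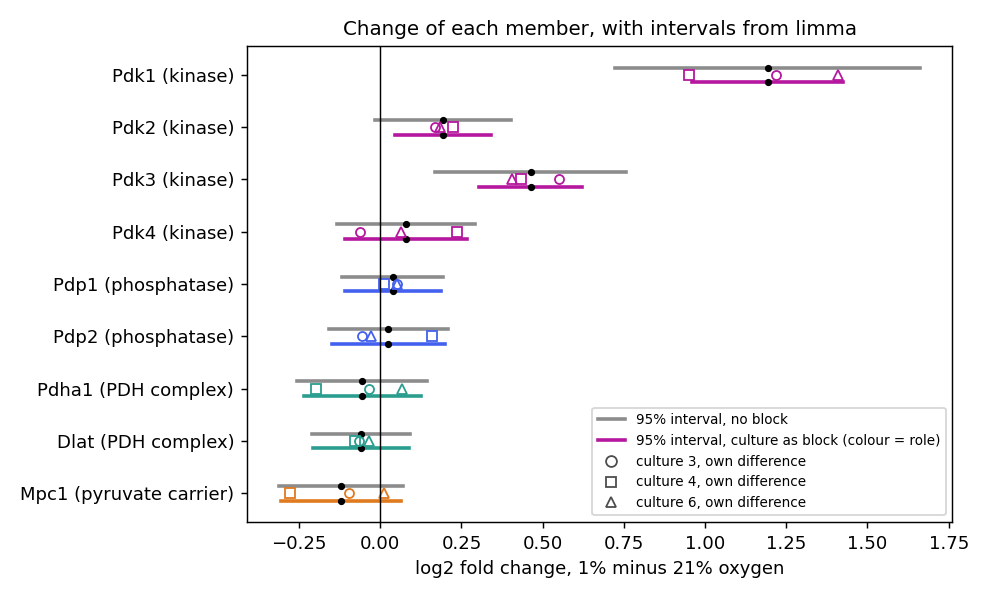
Log2 fold change of each gene at 1% minus 21% oxygen, with the 95% intervals from limma without the culture (grey) and with the culture as a block (coloured by role), and the difference in each culture as an open symbol. The intervals of Pdk1 and Pdk3 lie above 0 in both models, that of Pdk2 in the model with the block, and those of the other genes include 0.

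HIF binds DNA at a short core sequence, and the kinase promoters are shown so that their content of this core can be set beside the different shifts of the 4 genes. The RefSeq windows of GRCm38.p6 were used, 250 bases before a transcription start, 5′ to 3′ on the strand of the gene. Capitals mark the motifs ACGTG and GCGTG, searched on both strands, so a match on the other strand reads CACGT or CACGC. Where the table held several starts of a gene, the outermost of these is printed. The last 9 bases of the Pdk1 window lie within the gene span given above, which begins further upstream.
Pdk1, chr2:71872974-71873223, plus strand: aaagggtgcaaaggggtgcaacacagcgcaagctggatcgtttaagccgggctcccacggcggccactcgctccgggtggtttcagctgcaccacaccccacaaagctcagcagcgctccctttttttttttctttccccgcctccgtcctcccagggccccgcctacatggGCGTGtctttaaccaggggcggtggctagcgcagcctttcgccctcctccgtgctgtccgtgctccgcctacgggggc
Pdk2, chr11:95041372-95041621, minus strand: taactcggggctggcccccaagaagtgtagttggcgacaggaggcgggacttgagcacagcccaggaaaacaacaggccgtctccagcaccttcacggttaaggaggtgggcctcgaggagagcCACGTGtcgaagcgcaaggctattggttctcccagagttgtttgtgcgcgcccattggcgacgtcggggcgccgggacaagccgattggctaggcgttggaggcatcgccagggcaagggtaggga
Pdk3, chrX:93832151-93832400, minus strand: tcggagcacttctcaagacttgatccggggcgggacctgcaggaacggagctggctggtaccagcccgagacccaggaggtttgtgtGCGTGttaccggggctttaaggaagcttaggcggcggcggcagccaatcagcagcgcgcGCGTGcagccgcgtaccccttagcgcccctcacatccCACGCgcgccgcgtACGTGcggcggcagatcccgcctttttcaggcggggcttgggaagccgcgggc
Pdk4, chr6:5496279-5496528, minus strand: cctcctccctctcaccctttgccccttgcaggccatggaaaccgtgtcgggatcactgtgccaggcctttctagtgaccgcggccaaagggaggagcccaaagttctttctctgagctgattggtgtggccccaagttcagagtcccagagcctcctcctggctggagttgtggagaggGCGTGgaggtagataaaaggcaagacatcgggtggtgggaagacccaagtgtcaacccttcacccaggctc

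The window of Pdk1, the gene with the widest difference, held 1 match, GCGTG on its own strand, 78 to 74 bases before the start. A further Pdk1 start had none in its window. Pdk3 had 4 matches, of which 1 was ACGTG, 53 to 49 bases before the start, and 3 were GCGTG. In Pdk2 the palindrome CACGTG was read once on each strand, 126 to 121 bases before the start, and its further start had no match. Pdk4, whose values overlapped between the conditions like those of Pdk2, had 1 GCGTG, 71 to 67 bases before the start. Of 32851 such windows of all genes, 38.6% held either motif, 16.6% held ACGTG, and 6.58% held 3 or more matches. Windows were given for 9 of the 10 listed genes, Pdp1 being the exception, and 8 of their 12 windows held a match, Pdp2, Pdha1, Mpc1 and Mpc2 among them. From the largest shift to the smallest, Pdk1, Pdk3, Pdk2 and Pdk4 had 1, 4, 2 and 1 matches, those of Pdk2 being 1 palindrome. Whether the matches relate to the shifts was not tested, and only the 250 bases before a start were searched. A match in these letters is not a measured binding site.

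The phosphatases that oppose the kinases showed small differences that did not pass. Pdp1, whose product is the calcium-stimulated phosphatase of the complex, lies on chromosome 4 from 11958183 to 11966450. It stood at 8.19, 8.28 and 8.20 in normoxia and at 8.24, 8.30 and 8.25 in hypoxia. All 6 arrays were close to each other, and the log2 fold change was 0.04 (95% interval -0.12 to 0.19, adjusted p = 0.837, limma). Pdp2, which encodes the other phosphatase, lies on chromosome 8 from 104591472 to 104599026 and had values of 7.20, 7.20 and 7.29 in normoxia and 7.15, 7.36 and 7.26 in hypoxia. It was higher in culture 4 and lower in cultures 3 and 6, and differed by 0.03 on the log2 scale (95% interval -0.16 to 0.21, adjusted p = 0.908, limma), and the sign turned without the hypoxia array of culture 4 (-0.03).

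The measured subunits of the PDH complex did not pass either. Pdha1 encodes the alpha subunit on which the kinases act, and lies on chromosome X from 160122219 to 160138430. It was 9.19, 9.11 and 9.07 in normoxia and 9.16, 8.91 and 9.13 in hypoxia, with groups that overlapped and no common direction. Its log2 fold change of -0.06 (95% interval -0.26 to 0.15, adjusted p = 0.820, limma) turned to 0.02 without the hypoxia array of culture 4 and to 0.003 after cyclic loess. Dlat, which encodes the acetyltransferase core of the complex, lies on chromosome 9 from 50634633 to 50659780. Its values were 7.91, 7.93 and 7.95 in normoxia and 7.84, 7.85 and 7.91 in hypoxia. It was lower in each of the 3 cultures, by -0.06, -0.08 and -0.03, the groups overlapped, and the log2 fold change was -0.06 (95% interval -0.21 to 0.09, adjusted p = 0.752 without and 0.643 with the block, limma).

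Mpc1, the measured subunit of the pyruvate carrier, is encoded on chromosome 17 (8283787 to 8297667). The array values were 7.68, 7.81 and 7.55 in normoxia and 7.58, 7.54 and 7.56 in hypoxia. The SD was 0.13 over the normoxia arrays and 0.02 over the hypoxia arrays, and the level was lower in cultures 3 and 4 (-0.10 and -0.28) and about level in culture 6 (0.01). The log2 fold change was -0.12 (95% interval -0.31 to 0.07), and the adjusted p was 0.643 without and 0.466 with the block (limma).

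Set against each other by role, the kinases had higher log2 fold changes than the other members in the reported fit. The 4 kinases ranged from 0.08 to 1.19 with a median of 0.33, and the 5 other members from -0.12 to 0.04 with a median of -0.06, so these ranges did not meet. They did meet in 6 of the 19 alternatives, with Pdk4 below Pdp1 or Pdp2, among them quantile normalization (Pdk4 0.04, Pdp1 0.07), cyclic loess (0.03 and 0.07) and the fits without the normoxia array of culture 4 (0.02 and 0.07) or the hypoxia array of culture 3 (Pdk4 0.06, Pdp2 0.08). The median over all 30176 genes was 0.03. Within cultures 3, 4 and 6 the median of the kinases was 0.36, 0.33 and 0.30, and that of the other members -0.06, -0.08 and 0.01. In culture 4 every kinase lay above every other member. In culture 3 Pdk4 (-0.06) lay below 3 of the 5 other members, Pdp1 (0.05), Pdp2 (-0.06) and Pdha1 (-0.04), and in culture 6 Pdk4 and Pdha1 were both at 0.07. Without Pdk1 the median of the kinases was 0.19. These medians are a description and were not tested. Of the 9 genes, 5 kept the same ranking of the cultures in both conditions (Pdk1, Pdk2, Pdk3, Pdp1 and Dlat), as did 27.4% of all genes.

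To place these genes in their pathway, 47 further genes of pyruvate use were listed, of which 44 had a row of their own. Of these, 3 passed in the higher direction and 0 in the lower one, with and without the block, and the median log2 fold change of the 44 was 0.04. The shares of all genes that passed were the 0.209% and 0.0166% given above, or 0.421% and 0.116% with the block. At an unadjusted p under 0.05, 8 of the 44 were higher and 3 lower, against 4.28% and 6.1% of all genes. With the block these were 10 and 7, against 7.68% and 9.26%. The 3 that passed act outside the mitochondria. Slc16a3, which encodes the lactate exporter MCT4, stood at 8.20, 8.35 and 8.19 in normoxia and at 9.88, 10.14 and 10.12 in hypoxia, higher by 1.80 ± 0.09 (log2 fold change ± standard error, adjusted p = 0.000517, limma). Ldha, the lactate dehydrogenase subunit that favours lactate production, went from 10.93, 10.81 and 10.84 to 11.64, 11.68 and 11.56, higher by 0.77 ± 0.07 (adjusted p = 0.00702, limma). Pkm, the pyruvate kinase gene, went from 11.93, 11.95 and 11.97 to 12.39, 12.47 and 12.44, higher by 0.48 ± 0.07 (adjusted p = 0.0400, limma). In all 3 genes the groups were separated by more than the spread within either. Their normoxia SDs were 0.09, 0.06 and 0.02, against 0.40 for Pdk1. Slc16a3 passed in all 19 alternative fits. Pkm did not pass when any 1 array was left out (adjusted p = 0.0641 to 0.218 from limma), after quantile normalization (0.0539), with an intensity trend (0.0918) or, with the block, without culture 3, 4 or 6 (0.194, 0.0776 and 0.0713). Ldha did not pass without the normoxia array of culture 6 (adjusted p = 0.0503) or, with the block, without culture 3 (adjusted p = 0.157).

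The other carriers and enzymes that use pyruvate did not pass. In Slc16a1, a monocarboxylate transporter gene, the difference was 0.42 with groups that did not overlap (adjusted p = 0.156 without and 0.0972 with the block, limma). Slc16a7, another such gene, went the other way, with hypoxia wholly below normoxia. Its log2 fold change was -0.20 (adjusted p = 0.508 without and 0.251 with the block, limma). Pcx, which encodes the pyruvate carboxylase of the alternative route into the TCA cycle, had one of 0.17 (adjusted p = 0.449). Ldhb varied more between cultures than between conditions, at 8.25, 9.15 and 7.97 in normoxia and 8.17, 9.17 and 8.22 in hypoxia. The high value of culture 4 was thus present in both conditions, and the log2 fold change was 0.06 (adjusted p = 0.952).

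The remaining genes of the PDH complex also had small differences that did not pass. Pdhb, the beta subunit gene, Pdhx, which encodes the protein that tethers the shared dehydrogenase subunit, and Dld, which encodes that subunit, were lower in each of the 3 cultures. Their log2 fold changes were -0.13, -0.18 and -0.17 (adjusted p = 0.647, 0.509 and 0.559 from limma). Pdpr, which encodes a regulatory subunit of the phosphatase, was higher in each culture and by 0.13 on average (adjusted p = 0.638, limma). Pdha2, the testis form of the alpha subunit, was at 3.08 to 3.53 over the 6 arrays. None of the 4 genes of lipoate attachment passed, and their median was -0.06. Neither did any of 7 genes of acetyl-CoA and citrate (median 0.14) or of 7 genes of the sister complexes for 2-oxoglutarate and branched-chain acids (median -0.06). Hypoxia lay wholly above normoxia in 3 of the acetyl-CoA and citrate genes, against 8.24% of all genes. In the sister complexes it lay wholly below in 2, Dbt (-0.26) and Bckdhb (-0.15), against 7.58% of all genes.

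Of 11 listed regulators of PDK transcription, 9 had a row of their own and none passed. Hif1a, which encodes an oxygen-regulated subunit of HIF controlled mainly at the protein level, was lower in each culture, with a mean difference of -0.24 (adjusted p = 0.543, limma). Pparg, which encodes a nuclear receptor of lipid metabolism, was lower by -0.40, -0.38 and -0.50 in cultures 3, 4 and 6. Its groups overlapped, with culture 3 lowest in both conditions, and its log2 fold change of -0.43 had an adjusted p = 0.473 without and 0.0610 with the block (limma). Foxo3, a transcription factor gene of the starvation response, was higher in each culture, by 0.25 on average, with an adjusted p = 0.383 without and 0.149 with the block (limma).

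The genes with values most like those of Pdk1 over the 6 arrays were Epm2a, Vegfa, Bhlhe40, Ccng2 and Tifab. Likeness was the root mean square difference after the mean of each gene had been subtracted, and predicted genes and genes with a mean intensity under the median were left out. The distance to Pdk1 was 0.18 for Epm2a, which encodes the glycogen phosphatase laforin, and 0.20 for Vegfa, the angiogenic growth factor. It was 0.22 for Bhlhe40, a transcriptional repressor gene, 0.25 for Ccng2, a cyclin gene, and 0.26 for Tifab. Their log2 fold changes were 1.14, 1.22, 1.25, 1.30 and 0.85, and all passed with the block. Their adjusted p without it was 0.0256, 0.0597, 0.00952, 0.00818 and 0.0400 (limma). As the 5 genes were chosen for their likeness to Pdk1 on these same arrays, their fold changes and calls follow in part from that choice.

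**Figure D3:**
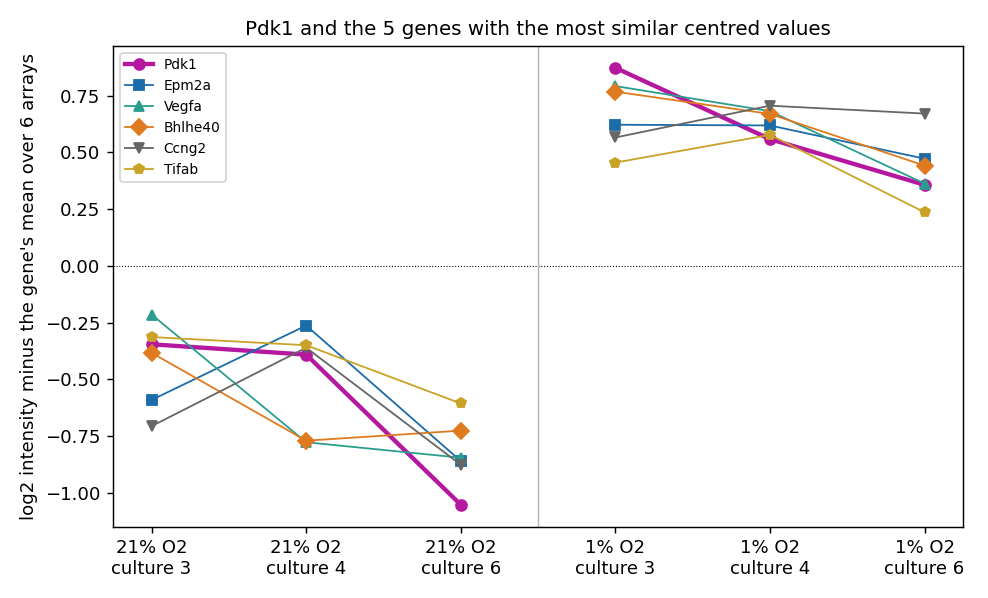
Log2 intensity minus the mean of the gene over all 6 arrays, for Pdk1 (thick line) and the 5 genes whose centred values differ least from it, by condition and culture. All 6 genes lie below 0 in normoxia and above 0 in hypoxia, and Pdk1 is the lowest of the 6 in normoxia culture 6.

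Whether Pdk1 passed depended on the pairing by culture, and Pdk3 passed where the pairing was combined with array weights. In 13 alternative fits without the block the adjusted p of Pdk1 was 0.0542 to 0.321 and that of Pdk3 0.143 to 0.743. Over all 19 alternatives the log2 fold change of Pdk1 stayed between 0.96 and 1.32 and that of Pdk3 between 0.34 and 0.56.

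**Figure D4:**
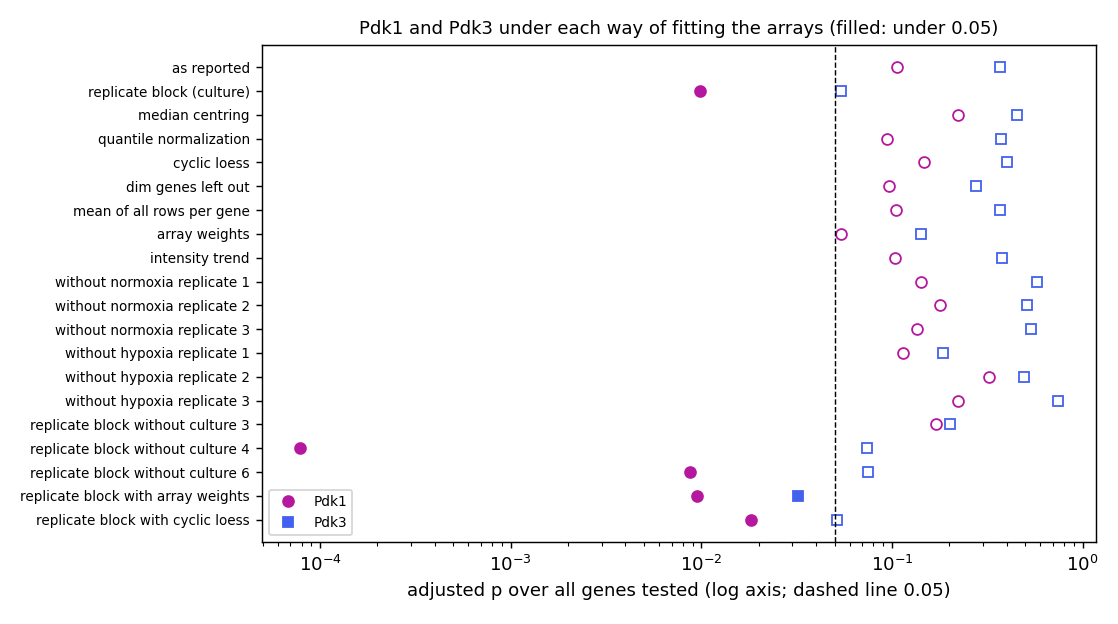
Adjusted p of Pdk1 (circles) and Pdk3 (squares) over all genes tested, on a log axis, under the reported fit and each alternative, with filled symbols under 0.05. Pdk1 is filled in 5 of the 6 fits with the culture as a block, the exception being the fit without culture 3, and in none of the others.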

How the data were processed

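Gene expression was measured on Affymetrix arrays, 1 for each of the 6 combinations of culture and oxygen level. Per the labels, the authors processed the arrays with Affymetrix Expression Console and RMA, using the build mm10, and analysed them with limma. Versions of these tools, and any filter, are not stated in the labels. The deposited values are log2 intensities per transcript cluster. RMA subtracts background, makes the distributions of probe intensities equal between arrays and summarises probes by median polish. Differences of dim genes are compressed in RMA values. The deposited values after this summary were not exactly equal in distribution, with array medians of 5.84 to 5.92.

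The table holds 72688 features. The platform annotation gave 1 gene symbol for 30638 of them, several for 2176 and none listed here for 39874. Features with 1 symbol were kept, and of 354 genes with several features the brightest one was used, which left 30176 genes. The 9 measured genes of pyruvate entry had 1 feature each. Gene coordinates and promoter windows come from RefSeq (GRCm38.p6), which has the coordinates of mm10.

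Samples were grouped by the oxygen level in the labels. Hypoxia was compared with normoxia by lmFit and eBayes of limma 3.58.1 in R 4.3.3, and p-values were adjusted over all 30176 genes by the Benjamini-Hochberg method, with calls made under 0.05. Intervals are 95% intervals of the moderated statistic. The procedure was tested on simulated data. The labels give the same culture numbers in both conditions and call the cultures biological replicates. Deviations from the group means correlated at 0.57, 0.40 and 0.22 within cultures 3, 4 and 6 and at -0.50 to 0.14 between cultures. The reported fit has no block and so does not use the pairing by culture. The fit with the culture as a block is given beside it for the genes and counts where it bears on a call. With the block the adjusted p of Pdk4, Pdp1, Pdp2 and Pdha1 was 0.619, 0.760, 0.867 and 0.715 (limma). With 3 arrays per group, the number of arrays limits the precision.

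Alternatives were the block, median centring, quantile normalization, cyclic loess, leaving out dim genes, the mean of all features of a gene, array weights, an intensity trend and leaving out each array. The block without 1 culture, with array weights or with cyclic loess was added after seeing the data. The genes named are the 10 listed genes, genes of the wider list that passed or are given as plain values, the 5 genes most like Pdk1 and 5 genes that check the exposure. The members and lists were chosen with earlier results of these data known. Figures were drawn with matplotlib 3.10.9.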

Additional observations from a re-analysis of the deposited data

How the results depend on the processing

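The directions of Pdk1, Pdk2, Pdk3, Pdk4, Pdp1, Dlat and Mpc1 were the same under every alternative run for them. Of the values of single genes under the alternatives, 158 kept direction and side of the threshold, 6 newly passed and 6 turned sign. Those that turned were Pdp2 (-0.0283 without the hypoxia array of culture 4, in a range of -0.0283 to 0.0795 when 1 array was left out, and -0.0422 with the block without culture 4) and Pdha1 (0.0033 after cyclic loess with and without the block, 0.0211 without the hypoxia array of culture 4, in a range of -0.100 to 0.0211 when 1 array was left out, and 0.0150 with the block without culture 4).

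The number of the 9 genes called higher was 0 in the reported fit, 1 with the culture as a block, 1 with the block without culture 4, 1 with the block without culture 6, 2 with the block and array weights and 1 with the block and cyclic loess. With the block without culture 3 it was 0. Added to the reported fit, the block changed no call among the 9 genes other than that of Pdk1. With array weights, Pdk3 had an adjusted p = 0.143 without and 0.0323 with the block (limma). Over all genes, 63 were called higher and 5 lower. With the block these counts were 127 and 35, with array weights 116 and 32, with the block and array weights 249 and 144, and with the block and cyclic loess 106 and 17. With the block they were 17 and 1 without culture 3, 135 and 94 without culture 4, and 121 and 22 without culture 6. Leaving out 1 array gave 27 to 40 higher and 1 to 16 lower. The number called lower was 2 after median centring and 3 after cyclic loess. At an unadjusted p under 0.05, 1291 genes were higher and 1842 lower, and 2318 and 2793 with the block. Of the wider list, 1 to 2 genes were called higher when 1 array was left out and 1 with the block without culture 3, and 1 gene (Pparg) was called lower with the block and array weights. The median of the kinases was 0.46 without the dim Pdk4. The median of the other members was -0.0025 after quantile normalization and 0.0033 after cyclic loess with and without the block. Fewer arrays enter the fits that leave out an array or a culture. The cause of the changed counts was not tested for any alternative.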
